A study of Homo sapiens with 6 samples.

Results

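The RAB GTPases were taken as every gene of the deposited count table whose symbol is RAB followed by a number and at most one letter. This gave 64 genes of 61267. RAB proteins are small switches of membrane traffic. An exchange factor loads a RAB with GTP on a vesicle or organelle, the loaded RAB recruits effectors such as motors and tethers, a GTPase-activating protein switches it off, and a GDP dissociation inhibitor carries the prenylated protein back through the cytosol. Each compartment of the secretory and endocytic routes carries its own members, and in macrophages they set how phagosomes mature, how receptors return to the surface and how granules and cytokines leave the cell.

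The RNA came from THP-1, a human line grown from a monocytic leukemia, treated in every sample of both groups with the phorbol ester PMA (100 ng/ml, 48 h), which makes them adhere and turn macrophage-like. There were 3 libraries labelled KD and 3 labelled NC, with neither abbreviation spelled out and no target given for KD. The series title names METTL1, an RNA 7-methylguanosine methyltransferase. METTL1 held 567, 528 and 524 counts in the KD libraries, against 596, 653 and 642 counts in the NC libraries. Every KD count was below every NC count. On the TMM scale described below METTL1 did not pass the test (log2 fold change -0.10, SE 0.076, edgeR adjusted p = 0.216). That result depends on the scale, and METTL1 on other scales is not given here. Each direction given is between library labels, KD over NC. No label tells whether replicates are independent cultures, and the spread behind the p-values may therefore be technical.

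Total counts per library ran from 41547814 to 42608884 in KD and from 37628972 to 42970216 in NC. The 14 macrophage and monocyte markers checked were counted in every group, with a summed level of 1985 to 2094 CPM (counts relative to library size, with no further factor) in KD and 1165 to 1241 CPM in NC. A list of 58 leukocyte-restricted genes summed to 11572 to 11687 CPM in KD and to 5134 to 5208 CPM in NC. A list of 20 neural, progenitor and embryonic kidney line genes, such as NEFM and LIN28B, summed to 26.8 to 30.4 CPM in KD and to 2265 to 2573 CPM in NC, and 7 of the 20 had no count in any KD library. A list of 10 epithelial genes summed to 20.4 to 21.9 CPM in KD and to 718 to 739.5 CPM in NC. Other lists did not fall in KD. The 10 neuron and neuroendocrine genes summed to 106.8 to 110.6 CPM in KD and to 94.5 to 97.1 CPM in NC. Of these 10, 4 were called higher and 4 lower in KD on the TMM scale described below. The 8 fibroblast genes summed to 95.8 to 98.8 CPM in KD and to 25.6 to 27.3 CPM in NC. Of these 8, 6 had a mean under 1 CPM in KD and 6 in NC, so few genes make up the sums. Only 3 were tested, with 2 called higher and 1 lower in KD on the TMM scale. These lists were written with earlier results of these data known. The NC libraries thus hold transcripts that go against the label of a monocytic line, and the part of these transcripts in each RAB difference was not tested. In such bulk samples, fewer cells of a type and less RNA per cell cannot be told apart. Changes are given on the TMM scale, which levels most tested genes, and again on a leukocyte scale, where the normalization factors were computed over the 58 leukocyte-restricted genes only. All tested genes had a median log2 fold change, KD over NC, of -0.05 on the TMM scale and -1.32 on the leukocyte scale.

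**Figure D1:**
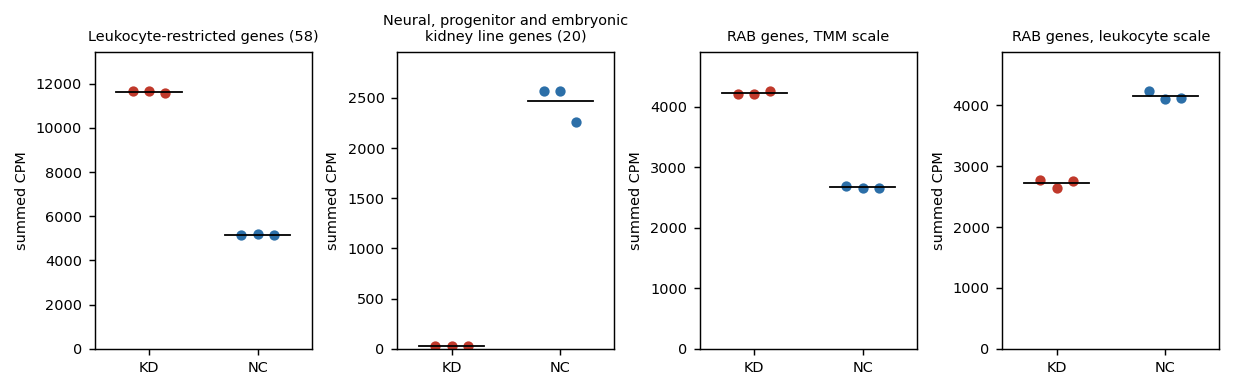
Summed CPM in each library for the 58 leukocyte-restricted genes and the 20 neural, progenitor and embryonic kidney line genes (scaled by library size alone), and for all 64 RAB genes on the TMM scale and on the leukocyte scale. Points are libraries, lines are group means. KD libraries are above NC libraries for the leukocyte list and for RAB genes on the TMM scale, and below them for the second list and for RAB genes on the leukocyte scale.

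As a whole, the RAB genes took a larger part of the RNA counted in KD. They held 0.39003%, 0.39955% and 0.40049% of all counts in the KD libraries, against 0.28165%, 0.28965% and 0.28336% in the NC libraries. The groups did not overlap (exact permutation test over samples, two-sided, p = 0.1, the smallest that 3 against 3 samples allow). On the leukocyte scale the order turned: the summed RAB level was 2724 ± 74.8 CPM in KD and 4158 ± 75.6 CPM in NC (mean ± SD, n = 3 each).

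Of the 64 RAB genes, 57 passed the filter on low counts and were tested. The other 7 (RAB42, RAB25, RAB26, RAB37, RAB19, RAB41 and RAB1C) had at most 20 counts in any library. RAB25, a recycling RAB of epithelia, held 0, 4 and 2 counts in KD, against 4, 2 and 4 counts in NC. RAB19 had no count in KD and 2, 0 and 4 counts in NC. On the TMM scale 31 RAB genes were higher and 16 lower in KD past an adjusted p of 0.05 (quasi-likelihood test of edgeR, with adjustment over all 21905 tested genes), and 10 did not pass. Higher calls were 54.4% of the tested RAB genes, beside 36.2% of all tested genes, and lower calls were 28.1%, beside 40.3%. Calls in either direction were 82.5% of the RAB genes, beside 76.5% of all tested genes. The median log2 fold change of the RAB genes was 0.35. KD and NC ranges in CPM were apart for 49 of the 57 (33 higher and 16 lower), or 86%, beside 78% of all tested genes. Of the 31 higher genes 8 were at 2-fold or more, and of the 16 lower genes 11 were. The matching shares of all tested genes are not given here, so this contrast cannot be called particular to RAB genes. On the leukocyte scale 1 RAB gene was higher, beside 2.62% of all tested genes, and 49 were lower, or 86%, beside 85%. There, 23 of the 31 genes called higher on the TMM scale were called lower, and all 16 called lower stayed lower.

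**Figure D2:**
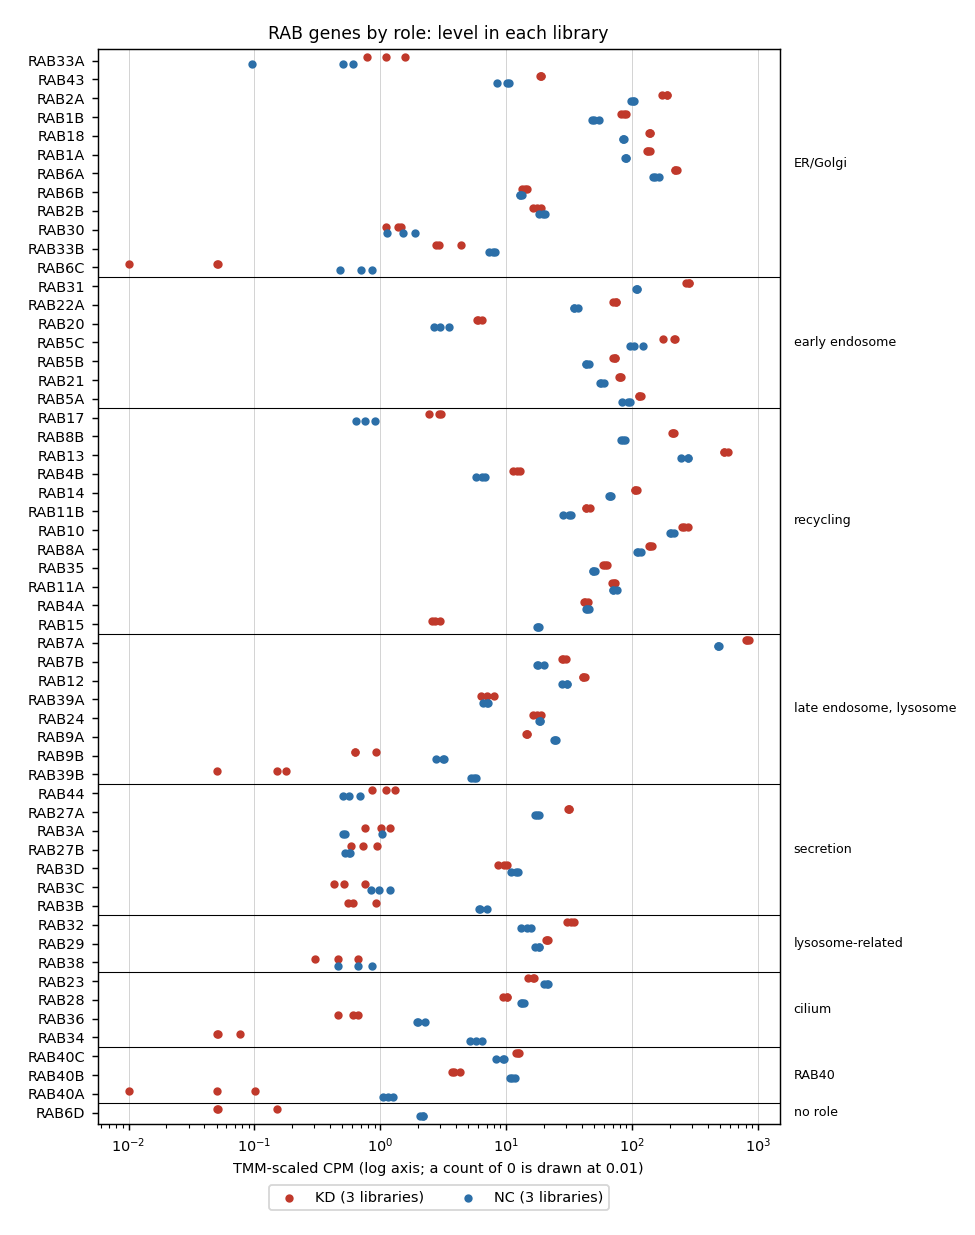
TMM-scaled CPM of the 57 tested RAB genes in each of the 3 KD and 3 NC libraries, on a log axis and grouped by the compartment or process each gene is known for. RAB7A and RAB13 lie highest in both groups, and RAB34, RAB39B, RAB40A, RAB6C and RAB6D lie below 1 CPM in every KD library.

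RAB genes differed in level over several orders of magnitude. Per exon length, in TPM, RAB13 stood highest at 546 ± 18.8 TPM in KD and 284 ± 16.5 TPM in NC (mean ± SD, n = 3 each). RAB7A, the RAB of late endosomes and lysosomes, followed at 313 ± 7.88 TPM in KD and 197 ± 4.55 TPM in NC. RAB10, which carries receptors and transporters to the plasma membrane, was at 197 ± 9.42 TPM in KD and 164 ± 5.26 TPM in NC, from 279, 259.9 and 251 CPM in the KD libraries, against 202, 200.4 and 216 CPM in the NC libraries. RAB5C, an early endosome RAB, was at 202 ± 26.1 TPM in KD and 114 ± 15.6 TPM in NC, so that RAB10 and RAB5C did not differ beyond their spread in KD. RAB6A, the main Golgi RAB, came next over all 6 libraries with 124 ± 1.99 TPM in KD and 91.5 ± 3.79 TPM in NC, from 227, 219 and 221 CPM in the KD libraries, against 152, 148 and 163 CPM in the NC libraries. For both RAB10 and RAB6A the KD libraries were all above the NC libraries in CPM. The 5 highest genes of each group together held 50.6% of the per-length RAB signal in KD and 45.8% in NC. RAB31 ranked 5th in KD and 10th in NC, and RAB8B ranked 8th in KD and 12th in NC.

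The members assigned to the early endosome group were all higher in KD on the TMM scale. These RABs drive fusion of incoming vesicles and the first steps of phagosome maturation, and 7 of 7 passed. Of all tested genes, 36.2% were called higher. The count of 7 depends on which genes were placed in the group. RAB15, an endosomal RAB placed in the recycling group, was lower (log2 fold change -2.69). RAB31 (chromosome 18, 9708275 to 9862551, plus strand, GRCh38), which acts between the trans-Golgi network, early endosomes and phagosomes, stood at 269, 285 and 286 CPM in the KD libraries, against 108, 110.4 and 109.6 CPM in the NC libraries. This gave a log2 fold change of 1.36 (SE 0.041, edgeR adjusted p = 1.08e-19), the largest rise among RAB genes with at least 5 CPM. RAB22A (chromosome 20, 58309715 to 58367507, plus strand), its close relative on early endosomes, stood at 70.9, 74.9 and 74.8 CPM in KD, against 34.9, 37.0 and 34.4 CPM in NC (log2 fold change 1.05, SE 0.047, edgeR adjusted p = 2.54e-16). Every KD library was above every NC library for both genes. RAB20 (chromosome 13, 110523066 to 110561722, minus strand), which takes part in phagosome maturation, stood at 5.84, 6.48 and 5.98 CPM in KD, against 2.66, 3.51 and 2.97 CPM in NC (log2 fold change 1.00, SE 0.13, edgeR adjusted p = 1.79e-07). Of the 3 RAB5 paralogs, which nucleate the early endosome, RAB5C stood at 175, 217 and 220.5 CPM in KD, against 104, 122 and 96.9 CPM in NC, with a wider spread within groups than RAB31 or RAB22A (log2 fold change 0.92, SE 0.13, edgeR adjusted p = 0.00135). RAB5B (0.73 ± 0.045), RAB21 (0.48 ± 0.043), which moves integrins, and RAB5A (0.34 ± 0.048) were higher by less. Values in brackets after a gene are its log2 fold change ± SE. On the leukocyte scale 0 of the 7 were higher and 4 were lower, or 57.1%, beside 85% lower among all tested genes. RAB31 was then at 0.084, RAB22A at -0.22, RAB20 at -0.27 and RAB5C at -0.35, while RAB5A was at -0.94.

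Recycling and surface-delivery RABs had 9 higher and 1 lower of 12 tested on the TMM scale. These were 75% and 8.33%, beside 36.2% and 40.3% of all tested genes. RAB8B (chromosome 15, 63189560 to 63267776, plus strand), which directs exocytic and recycling carriers, stood at 215, 213 and 206 CPM in KD, against 84.9, 81.9 and 87.9 CPM in NC (log2 fold change 1.31, SE 0.042, edgeR adjusted p = 2.65e-19). RAB13 (chromosome 1, 153981617 to 153986358, minus strand), known from tight junctions and surface delivery, stood at 576, 541 and 533 CPM in KD, against 281, 246 and 278 CPM in NC (log2 fold change 1.04, SE 0.049, edgeR adjusted p = 6.89e-16). Both were more abundant in every KD library than in any NC library. RAB4B, of the fast recycling route, stood at 11.2, 12.3 and 12.9 CPM in KD, against 6.74, 5.76 and 6.46 CPM in NC (log2 fold change 0.94, SE 0.095, edgeR adjusted p = 2.15e-09). RAB14 (0.68 ± 0.040), RAB11B (0.51 ± 0.057) and RAB10 (0.35 ± 0.045) were higher by less, as were RAB8A (0.30 ± 0.041) and RAB35 (0.30 ± 0.046). The paralogs RAB11A and RAB4A did not pass. RAB11A, the marker of recycling endosomes, held 2736, 2850 and 2842 counts in KD, against 2951, 2898 and 3406 counts in NC (log2 fold change -0.013, SE 0.044, edgeR adjusted p = 0.801). RAB4A stood at 42.4, 41.4 and 44.4 CPM in KD, against 45.7, 43.4 and 43.6 CPM in NC (log2 fold change -0.050, SE 0.049, edgeR adjusted p = 0.351). The CPM ranges of the groups overlap for both, and with library sizes alone both were called lower, at -0.20 and -0.24. On the leukocyte scale RAB11A and RAB4A were called lower too, at -1.29 and -1.33, where the median of all tested genes was -1.32. RAB17, known from epithelial recycling and melanocytes, was scarce at 3.05, 2.42 and 2.91 CPM in KD, against 0.759, 0.903 and 0.642 CPM in NC. Its log2 fold change of 1.87 (SE 0.21, edgeR adjusted p = 1.53e-08) was the largest rise of all, and it was the 1 RAB gene called higher on the leukocyte scale too, at 0.59 (edgeR adjusted p = 0.013). RAB15, an endosomal RAB best known from neural cells, went the other way. It stood at 2.57, 2.98 and 2.74 CPM in KD, against 17.5, 17.8 and 18.1 CPM in NC (log2 fold change -2.69, SE 0.096, edgeR adjusted p = 2.79e-18). On the leukocyte scale RAB8B was at 0.039 and RAB13 at -0.24, and RAB4B, RAB14, RAB11B, RAB10, RAB8A and RAB35 were between -0.97 and -0.33.

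Late endosome, lysosome and autophagy RABs had 3 higher and 3 lower of 8 on the TMM scale. At 37.5% each, these were near the 36.2% and 40.3% of all tested genes. RAB7A stood at 821, 849 and 801 CPM in KD, against 485, 493 and 484 CPM in NC (log2 fold change 0.76, SE 0.042, edgeR adjusted p = 1.67e-14). RAB7B (0.64 ± 0.064), which lowers Toll-like receptor signaling in macrophages, and RAB12 (0.48 ± 0.053), which sends recycling receptors to lysosomes, were higher as well. All 3 were lower on the leukocyte scale, at -0.52, -0.63 and -0.80. RAB9A, which returns mannose 6-phosphate receptors from late endosomes to the Golgi, stood at 14.6, 14.5 and 14.4 CPM in KD, against 24.5, 25.0 and 23.8 CPM in NC (log2 fold change -0.75, SE 0.064, edgeR adjusted p = 1.04e-10). Its paralog RAB9B was scarcer and lower by more, at 0.635, 0.918 and 0.633 CPM in KD, against 3.23, 3.17 and 2.79 CPM in NC (log2 fold change -2.07, SE 0.21). RAB39B (chromosome X, 155258235 to 155264491, minus strand), a neuronal RAB, held 6, 7 and 2 counts in the KD libraries, against 232, 234 and 238 counts in the NC libraries. That is a 43.2-fold lower level in KD (95% interval of the count ratio 26.0 to 77.5). RAB39A, the paralog that acts on phagosomes in macrophages, stood at 6.99, 8.04 and 6.36 CPM in KD, against 6.50, 7.17 and 7.10 CPM in NC and did not pass (log2 fold change 0.041, SE 0.11, edgeR adjusted p = 0.735). RAB24, linked to autophagy, stood at 19.0, 16.2 and 17.5 CPM in KD, against 18.2, 18.5 and 18.6 CPM in NC, with overlapping groups. It did not pass either (-0.072 ± 0.070, edgeR adjusted p = 0.358), but was called lower with library sizes alone, at -0.26, and on the leukocyte scale, at -1.35.

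RABs of the endoplasmic reticulum and Golgi had 7 higher and 2 lower of 12 tested. These were 58.3% and 16.7%, beside 36.2% and 40.3% of all tested genes. The abundant members RAB2A (0.85 ± 0.044), RAB1B (0.76 ± 0.050), RAB18 (0.69 ± 0.040), RAB1A (0.61 ± 0.040) and RAB6A (0.53 ± 0.043) were all higher. RAB1A and RAB1B tether vesicles between the endoplasmic reticulum and the Golgi, RAB2A acts in the opposite direction there, and RAB18 marks the endoplasmic reticulum and lipid droplets. All 5 were lower on the leukocyte scale, from -0.75 to -0.42. RAB43 stood at 18.9, 18.6 and 18.9 CPM in KD, against 10.6, 10.2 and 8.45 CPM in NC (log2 fold change 0.95, SE 0.082, edgeR adjusted p = 1.44e-10), but 79.3% of its exon bases also belong to the readthrough gene ISY1-RAB43, which held 8402 to 8889 counts in KD and 9259 to 11480 in NC. RAB43 was called lower on the leukocyte scale, at -0.33. RAB2B, the paralog of RAB2A, stood at 18.8, 17.7 and 16.5 CPM in KD, against 20.3, 18.2 and 19.7 CPM in NC, with overlapping groups, and did not pass (-0.14 ± 0.070, edgeR adjusted p = 0.0783). RAB6B, a neuronal form of RAB6, held 552, 526 and 577 counts in KD, against 545, 549 and 587 counts in NC. Its groups were just apart in CPM, and it did not pass (0.098 ± 0.074, edgeR adjusted p = 0.235). The scarce Golgi member RAB30 did not pass (-0.19 ± 0.23, edgeR adjusted p = 0.455). RAB2B was called lower with library sizes alone, with a minimum mean of 1 CPM, without KD replicate 1 and without NC replicate 2. On the leukocyte scale RAB2B, RAB30 and RAB6B were all called lower, at -1.41, -1.46 and -1.18. The 2 RAB33 genes parted. RAB33B, which binds the autophagy protein ATG16L1, stood at 2.79, 2.93 and 4.41 CPM in KD, against 7.35, 8.20 and 7.92 CPM in NC (log2 fold change -1.21, SE 0.14, edgeR adjusted p = 2.19e-08). RAB33A, a form found in brain and immune cells, was scarce and higher, with 44, 31 and 62 counts in KD, against 4, 25 and 23 counts in NC (log2 fold change 1.51, SE 0.41, edgeR adjusted p = 0.00216), and was not called on the leukocyte scale, at 0.24. RAB6C and RAB6D, whose transcripts share 42.9% and 40.1% of their 75-base windows with other genes, most of them with each other, held 4 and 10 counts over the 3 KD libraries, against 87 and 276 counts over the 3 NC libraries. Reads of RAB6A, RAB6C and RAB6D may have been split between them by the authors' counting, so the levels of the scarce copies are uncertain.

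Secretory RABs showed 2 higher and 3 lower of 7 tested, or 28.6% and 42.9%, near the 36.2% and 40.3% of all tested genes. RAB27A, which docks secretory granules and exosome-bearing endosomes, stood at 31.4, 31.3 and 30.9 CPM in KD, against 18.1, 16.8 and 17.5 CPM in NC (log2 fold change 0.84, SE 0.059, edgeR adjusted p = 2.75e-12). RAB44, a large RAB of granulocytes and osteoclasts, was scarce at 1.09 ± 0.221 CPM in KD and 0.586 ± 0.0919 CPM in NC (mean ± SD, n = 3 each; 0.90 ± 0.29). RAB27A was called lower on the leukocyte scale, at -0.44, and RAB44 was not called there, at -0.37. RAB3B, a RAB of synaptic and endocrine vesicles, stood at 0.610, 0.918 and 0.557 CPM in KD, against 6.07, 7.10 and 6.15 CPM in NC (log2 fold change -3.21, SE 0.18, edgeR adjusted p = 2.35e-14). RAB3D (-0.32 ± 0.088), the form of secretory granules outside neurons, and RAB3C (-0.81 ± 0.30) were lower by less. RAB3C rested on 17 to 50 counts per library (edgeR adjusted p = 0.0179) and did not pass without KD replicate 2, KD replicate 3 or NC replicate 1, where its log2 fold change was -0.74, -0.64 and -0.68. RAB3A (0.54 ± 0.31, edgeR adjusted p = 0.118) and RAB27B (0.45 ± 0.32, edgeR adjusted p = 0.207) were under 1.2 CPM in each library and did not pass. RAB3A passed without NC replicate 2, at 0.93.

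Among RABs of lysosome-related organelles, RAB32 (chromosome 6, 146543833 to 146554953, plus strand), which acts in macrophage defence against vacuolar bacteria, stood at 30.5, 32.6 and 34.7 CPM in KD, against 13.1, 14.7 and 15.7 CPM in NC (log2 fold change 1.17, SE 0.071, edgeR adjusted p = 1.10e-13). RAB29, which recruits the kinase LRRK2, was slightly higher (0.25 ± 0.065) and was not called with library sizes alone, at 0.066. RAB29 was called lower on the leukocyte scale, at -1.02 (edgeR adjusted p = 1.86e-14), and RAB32 was not called there, at -0.11. RAB38, the melanosome paralog of RAB32, held at most 36 counts per library and did not pass (-0.48 ± 0.36, edgeR adjusted p = 0.236). It was called lower on the leukocyte scale, at -1.75.

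The RABs assigned to the cilium-linked group were lower in KD on the TMM scale, 4 of 4, where 40.3% of all tested genes were lower. No gene was placed in more than 1 role group, so this count depends on the assignment. RABs with a part in cilia that were placed in other groups are not in it. Those groups hold genes called higher, so the 4 of 4 does not stand for all RABs with a part in cilia. All 4 were lower on the leukocyte scale too, where 85% of all tested genes were. RAB34 (chromosome 17, 28714281 to 28718429, minus strand), needed for the ciliary vesicle, held 3, 2 and 2 counts in the KD libraries, against 218, 263 and 258 counts in the NC libraries. That is a 97.1-fold lower level in KD (95% interval of the count ratio 46.9 to 242), the largest difference of any RAB gene. RAB36, its closest relative, stood at 0.457, 0.663 and 0.608 CPM in KD, against 2.25, 2.00 and 1.95 CPM in NC (log2 fold change -1.84, SE 0.24). RAB28 stood at 10.1, 9.52 and 10.2 CPM in KD, against 13.2, 13.3 and 13.9 CPM in NC (log2 fold change -0.44, SE 0.079, edgeR adjusted p = 2.57e-05). RAB23, a brake on Hedgehog signaling, was lower by a similar amount (-0.38 ± 0.069), though 57.8% of its exon bases also lie in exons of BAG2 on the other strand. The RAB40 proteins carry a SOCS box and act as substrate receptors of ubiquitin ligases. RAB40B stood at 4.27, 3.70 and 3.88 CPM in KD, against 11.1, 11.7 and 10.8 CPM in NC (log2 fold change -1.51, SE 0.10, edgeR adjusted p = 1.15e-12). RAB40A held 6 counts over the KD libraries, against 148 counts over the NC libraries, a 22.7-fold lower level in KD (95% interval 10.2 to 62.8). RAB40C was higher (0.43 ± 0.086), but lower on the leukocyte scale, at -0.85. These intervals hold for counting error alone, with counts treated as independent. The 5 RAB genes that fell the most, RAB34, RAB39B, RAB6D, RAB40A and RAB6C, were at 0 to 3 counts in at least 1 KD library each. The neural, progenitor and embryonic kidney line list was 17 lower and 1 higher of 18 tested in the same comparison, and its part in these falls was not tested.

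**Figure D3:**
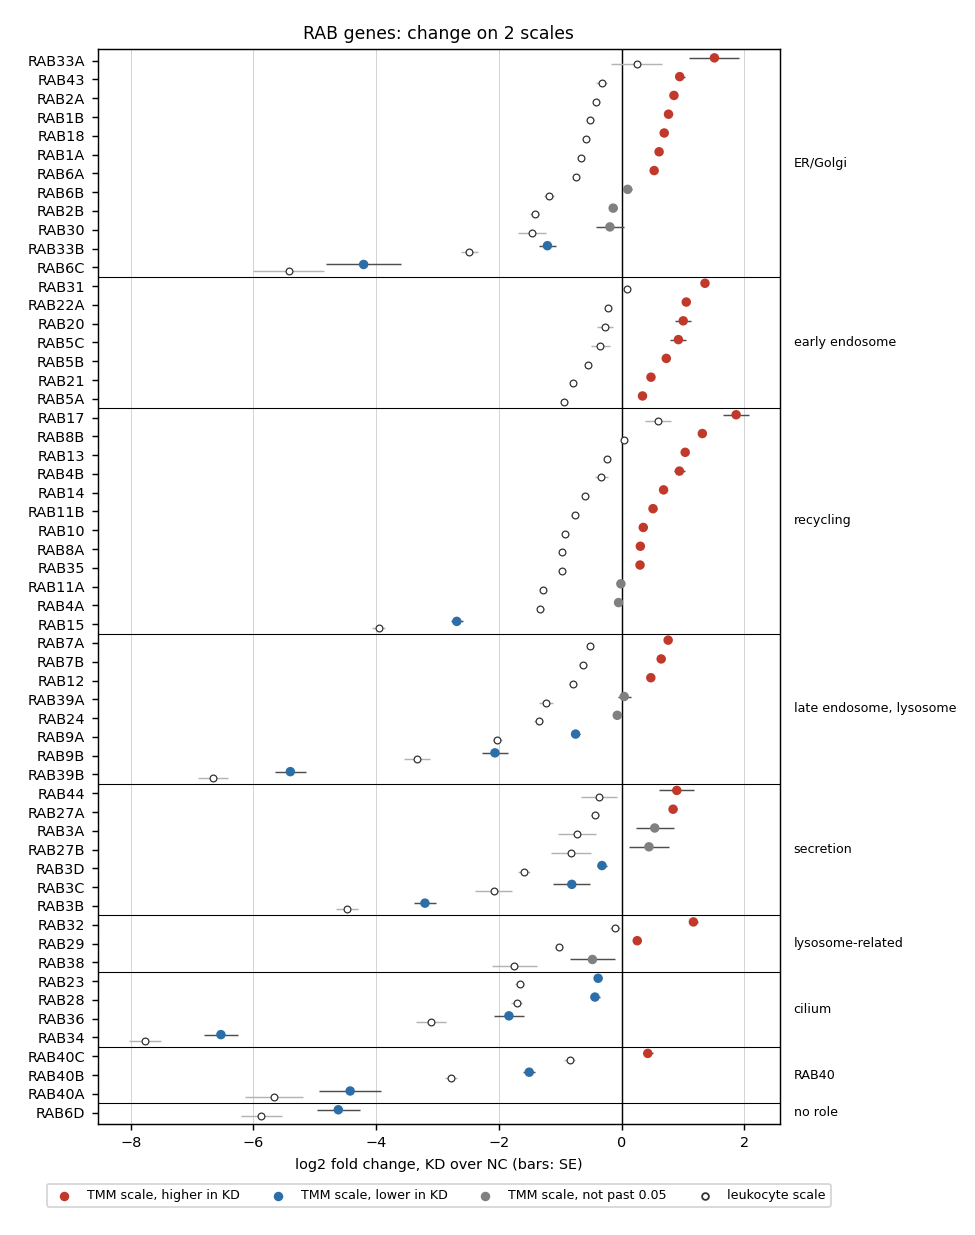
Log2 fold change, KD over NC, of the 57 tested RAB genes with its SE, on the TMM scale (filled, colored by the call at an adjusted p of 0.05) and on the leukocyte scale (open). All 7 genes assigned to the early endosome group lie right of 0 on the TMM scale. All 4 assigned to the cilium-linked group lie left of 0, and both counts depend on the assignment. On the leukocyte scale RAB17, RAB33A, RAB31 and RAB8B alone lie right of 0.

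The promoters of members that moved in each direction were read from the RefSeq promoter table (build GRCh38.p14), as the 250 bases before the annotated start, to show the sequences upstream of genes that rose and of genes that fell. Windows were found for 50 of the 64 RAB genes, 71 windows in all. Capitals mark GC boxes (GGGCGG on either strand) and the AP-1 letters TGANTCA, with any base as N. These letters include the narrower site that phorbol ester responses are known for, TGAGTCA or TGACTCA. RAB32 and RAB22A rose on the TMM scale, and RAB9A and RAB3B fell on both.
RAB32 (chr6:146543583-146543832, plus strand): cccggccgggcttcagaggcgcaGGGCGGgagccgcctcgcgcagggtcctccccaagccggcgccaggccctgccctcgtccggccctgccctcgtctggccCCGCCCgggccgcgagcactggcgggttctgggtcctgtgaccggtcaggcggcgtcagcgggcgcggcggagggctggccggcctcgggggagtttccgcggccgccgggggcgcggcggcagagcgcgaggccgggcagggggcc
RAB22A (chr20:58309465-58309714, plus strand): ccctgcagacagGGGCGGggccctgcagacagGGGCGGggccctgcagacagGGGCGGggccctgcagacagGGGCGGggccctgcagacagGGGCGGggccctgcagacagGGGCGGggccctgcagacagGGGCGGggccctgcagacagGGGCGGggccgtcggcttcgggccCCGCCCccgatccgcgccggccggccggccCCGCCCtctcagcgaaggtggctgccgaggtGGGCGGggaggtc
RAB9A (chrX:13688878-13689127, plus strand): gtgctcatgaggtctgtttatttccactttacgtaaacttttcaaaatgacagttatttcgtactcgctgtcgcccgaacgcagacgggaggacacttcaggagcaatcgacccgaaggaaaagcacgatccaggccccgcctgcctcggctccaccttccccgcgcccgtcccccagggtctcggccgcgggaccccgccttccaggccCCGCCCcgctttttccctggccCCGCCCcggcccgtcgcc
RAB3B (chr1:51990701-51990950, minus strand): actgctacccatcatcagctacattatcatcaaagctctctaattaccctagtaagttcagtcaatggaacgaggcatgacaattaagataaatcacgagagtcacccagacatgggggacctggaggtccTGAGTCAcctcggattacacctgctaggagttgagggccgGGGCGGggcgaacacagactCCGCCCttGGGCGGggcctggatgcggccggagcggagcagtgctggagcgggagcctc
The RAB32 window is 82% G or C and the RAB22A window 80.8%, where a unit of 20 bases that carries a GC box stands 8 times in a row. The RAB9A window is 63.6% G or C and the RAB3B window 56.8%. The windows printed here do not stand for each direction as a whole. On the TMM scale RAB17 was called higher with a window at 52.8%, and RAB40B lower with one at 71.2%. The median was 67.2% over 38 windows of genes called higher, 63.6% over 15 windows of genes called lower and 64% over all 71 RAB windows, beside 58% over all 35116 windows of the table. A GC box stood in 71.8% of the RAB windows, beside 42.6% of all windows. The AP-1 letters stood in 6 RAB windows, or 8.45%, beside 6.57% of all windows, and those windows belong to RAB13, RAB27A, RAB27B, RAB34, RAB3B and RAB5B, which moved in different directions or did not pass. In RAB27A the letters read TGATTCA, outside the narrower site, and both percentages include such matches. In RAB3B the site begins 119 bases before the start. The E-box CACGTG stood in 7.04% of the RAB windows, beside 6.34% of all windows. GC boxes and CpG-rich stretches overlap, and a match of letters is a description only.

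Shares within a family of paralogs do not depend on how libraries are scaled to each other. For 16 families, the share of each paralog was computed per library from counts per kilobase of exon, 38 shares in all. Of the 38, 29 had KD and NC ranges that were apart, or 76.3%, near the 78% of all tested genes whose CPM ranges were apart. In the 11 families of 2 genes both shares are a single measurement, so the count and the adjustment below take each such shift as 2; in 9 of these 11 the groups were apart. Each of these had an exact two-sided permutation p of 0.1, the smallest that 3 against 3 allow, and 0.131 after Benjamini-Hochberg adjustment over the 38. The RAB8 family changed its leading member: RAB8B made up 59.1, 60.0 and 59.0% of the family in the KD libraries, against 42.2, 41.9 and 42.0% in the NC libraries, with RAB8A the larger in NC. Of the RAB8A exon bases, 44.0% also lie in exons of other genes. Which paralog leads may therefore depend on how such reads were counted. RAB39B made up 0.947% ± 0.441 of its family in KD and 30.5% ± 1.41 in NC (mean ± SD, n = 3 each), with RAB39A holding the rest. RAB33A made up 66.6, 57.4 and 64.0% of the RAB33 pair in KD, against 6.05, 27.1 and 24.3% in NC, where a few reads set the value. In the RAB40 family RAB40C held 81.9% ± 1.77 in KD and 51.0% ± 2.04 in NC, and RAB40B held 17.8% ± 1.44 in KD and 42.4% ± 2.11 in NC. Smaller shifts were found toward RAB2A (86.9% ± 1.30 of its pair in KD and 77.0% ± 1.38 in NC) and RAB11B (60.1% ± 1.58 of its family in KD and 51.1% ± 1.83 in NC). RAB4B held 19.3% ± 0.926 of its pair in KD and 10.7% ± 0.585 in NC. In the RAB3 family RAB3B held 1.92% ± 0.447 in KD and 13.7% ± 0.566 in NC, while RAB3D, the largest part in both groups, overlapped. The shares of RAB7A and RAB27A, which hold most of their families, overlapped between the groups. RAB7A was at 93.6% ± 0.396 in KD and 93.1% ± 0.376 in NC.

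**Figure D4:**
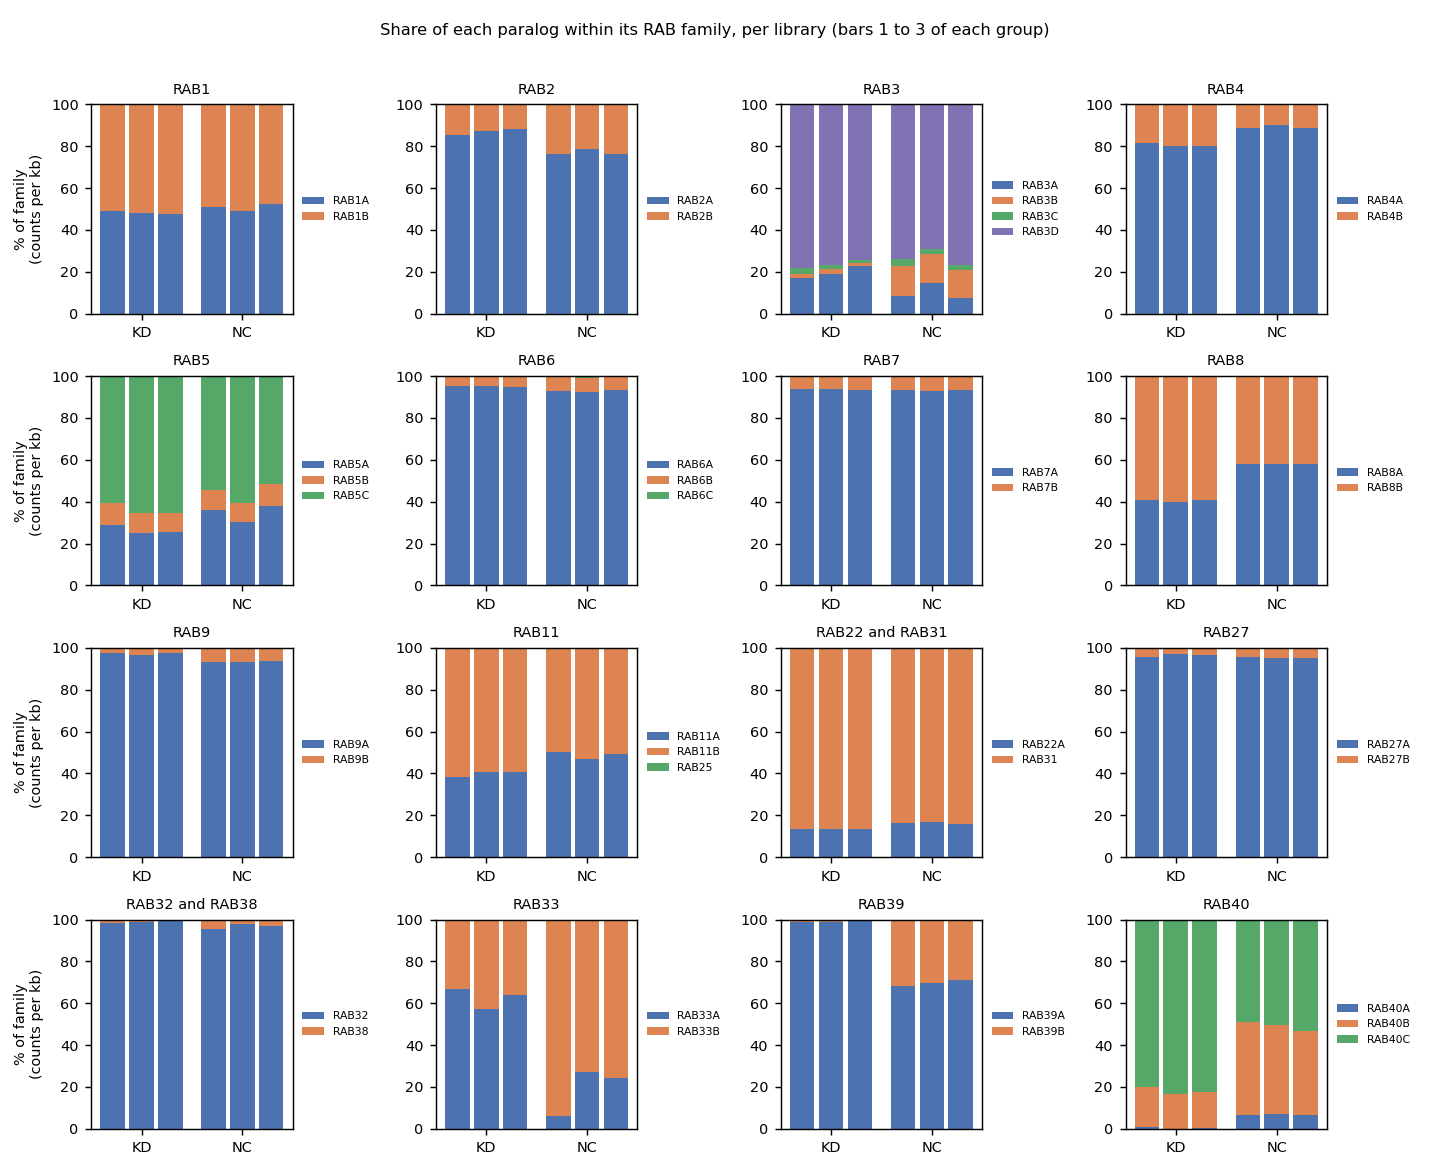
Share of each paralog in its RAB family, in percent of the family's counts per kilobase of exon, for 16 families. Each bar is a library, the 3 KD libraries on the left of each panel and the 3 NC libraries on the right. RAB8B exceeds RAB8A in the 3 KD libraries only, and RAB39B is visible in the NC libraries.

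Some member values hold reads that also belong to other genes. Exon bases of 33 of the 64 RAB genes also lie in exons of another gene of the table, over 10% of the bases for 15 of them. For RAB13, 24.8% of the exon bases are shared with the gene ENSG00000285641 on the same strand, which held 20674 to 22258 counts in KD and 10687 to 12686 in NC, beside 22651, 21202 and 21057 counts of RAB13 in KD and 11837, 10103 and 12543 in NC. For RAB4B the share was 39.7%, for RAB8A 44.0%, for RAB1B 43.8%, for RAB24 44.8% and for RAB5C 30.4%. Whether counting used strand was not given in the sources used here, so reads of antisense genes may be counted with the RAB gene.

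The regulators that load, unload and carry RABs were described from lists of 137 genes, of which 136 were tested. On the TMM scale 78 were higher and 41 lower in KD, with a median log2 fold change of 0.28. These are 57.4% and 30.1% of the regulators, beside 36.2% and 40.3% of all tested genes. On the leukocyte scale 4 were higher and 125 lower, or 2.94% and 91.9%, near the 2.62% and 85% of all tested genes. The counts of each list that follow are on the TMM scale. Prenylation and carrier genes had 8 higher and 3 lower of 13. GDI2, the main GDP dissociation inhibitor outside neurons, stood at 758, 740.5 and 751 CPM in KD, against 422, 423 and 426 CPM in NC (log2 fold change 0.82, SE 0.040). CHML, a RAB escort protein, held 1151, 1198 and 1186 counts in KD, against 2649, 2600 and 2832 counts in NC (-1.07 ± 0.047), and YIPF3 was higher (0.52 ± 0.048). Exchange factors had 23 higher and 13 lower of 42. DENND3, the exchange factor of RAB12, stood at 104, 108 and 110.1 CPM in KD, against 46.0, 44.7 and 46.6 CPM in NC (1.23 ± 0.043). SH3BP5, an exchange factor of RAB11, was higher (1.07 ± 0.040), and RAB3IP, the RAB8 exchange factor Rabin8, was lower, at 6.12, 5.97 and 6.21 CPM in KD, against 22.4, 22.3 and 21.4 CPM in NC (-1.85 ± 0.077). GTPase-activating proteins had 21 higher and 8 lower of 34. SGSM2 (-1.88 ± 0.073) and TBC1D4 (-1.30 ± 0.058), which restrains the RABs of glucose transporter delivery, were lower, and its relative TBC1D1 (1.01 ± 0.046) was higher. Effectors had 24 higher and 17 lower of 44 tested. EHBP1L1, an effector of RAB8, stood at 593, 575 and 550.5 CPM in KD, against 195, 179.8 and 196 CPM in NC (1.59 ± 0.045), and remained higher on the leukocyte scale, at 0.32. RILPL2 (1.35 ± 0.042), which binds RAB8 and RAB10 phosphorylated by LRRK2, was higher on the TMM scale and at 0.074 on the leukocyte scale. The vesicle motor MYO5C stood at 2.59, 2.81 and 2.41 CPM in KD, against 21.1, 21.5 and 22.8 CPM in NC (-3.06 ± 0.094). Of the 3 genes for RAB phosphorylation, LRRK1 (0.94 ± 0.10) and the phosphatase PPM1H (0.51 ± 0.076) were higher and LRRK2 did not pass (0.041 ± 0.18, edgeR adjusted p = 0.848). Among the regulators named as higher, GDI2, YIPF3, SH3BP5, TBC1D1, LRRK1 and PPM1H were called lower on the leukocyte scale, and DENND3 and RILPL2 were not called there.

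Other small GTPase families gave the following counts in the same fit, on the TMM scale, beside 36.2% higher and 40.3% lower among all tested genes. RAS family genes had 15 higher and 6 lower of 22 tested (median log2 fold change 0.67), and ARF and ARL genes had 12 higher and 10 lower of 25 tested (median 0.12). With 31 higher and 16 lower of 57 and a median of 0.35, the RAB genes stood between the ARF and the RAS families, and no test was made between families.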

How the data were processed

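RNA from 6 samples was analysed, 3 labelled KD and 3 labelled NC. The submitters' processing notes name fastp 0.23.0 and GRCh38. Aligner, counter, annotation and strand setting were not given in the sources used here. One table holds raw counts per gene, with exon coordinates and exon length as other values, deposited by the authors. Of the counts from 1 to 20, 67.8% to 70.3% were even, and of counts above 1000 it was 50.2% to 51.4%. The cause was not tested, and small counts may hold fewer independent fragments than their size, which would make count intervals too narrow.

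The test was that of edgeR 4.0.16 under R 4.3.3 (quasi-likelihood, robust, TMM, filterByExpr, Benjamini-Hochberg over 21905 genes, threshold 0.05, two-sided), after a check on simulated data. The SE was taken as the size of the log2 fold change over the root of F. CPM uses TMM-scaled library sizes unless stated, and TPM uses exon length. The leukocyte scale takes TMM factors from 58 genes. At totals of 37628972 to 42970216 counts, RAB genes under 1 CPM rest on few counts. Members, lists and tests were chosen with earlier results of these data known. Genes were named by a rule: the 8 largest rises and 8 largest falls among genes (5 CPM or more in whichever group was higher, groups apart), the 5 highest in TPM, the 6 most abundant not past the threshold, up to 3 genes per regulator list by p, and other members by role. Per-library values are given for the first 3 of these sets and for some regulators. Per-library values of RAB9B, RAB17, RAB19, RAB25, RAB27A, RAB33A, RAB36, and the count sums of RAB40A, RAB6C and RAB6D, stand outside those sets, and those of the regulators CHML, GDI2, DENND3, RAB3IP, EHBP1L1 and MYO5C within theirs; both were chosen after their values were seen. Near-identical copies were checked with GENCODE 29 transcripts in 75-base windows. Alternatives were DESeq2 1.42.0, limma 3.58.1 voom, other scalings and filters, a replicate block, an adjusted p of 0.01, halved counts and leaving out each library. No label tells whether replicate numbers pair the samples, and the main fit did not pair them. The pooled count of other small GTPases holds genes that are not reported separately here.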

Additional observations from a re-analysis of the deposited data

How the results depend on the processing

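The counts of RAB genes higher and lower, 31 and 16, stayed within 1.5 times under every alternative run except the leukocyte scale, where they were 1 and 49. There the regulators were 4 higher and 125 lower and the other small GTPases 4 higher and 57 lower, in place of 78 and 41 and of 40 and 23. With the replicate block, 31 RAB genes were higher and 16 lower. Deviations from the group mean had correlations of 0.0153, 0.00592 and -0.0138 between samples of the same number, for numbers 1 to 3. With 3 libraries per group, these values cannot tell whether samples of the same number were paired. Leaving out each library gave 31 to 32 higher and 15 to 17 lower RAB genes, 30 to 33 shares without overlap in place of 29, and a KD minus NC difference in the share of all counts of 0.11 to 0.115 percentage points in place of 0.112. Log2 fold changes turned sign on the leukocyte scale for RAB32 (-0.11), RAB22A (-0.22), RAB13 (-0.24), RAB20 (-0.27), RAB43 (-0.33), RAB4B (-0.33), RAB5C (-0.35), RAB44 (-0.37), RAB2A (-0.42), RAB27A (-0.44), RAB1B (-0.51), RAB7A (-0.52), RAB5B (-0.55), RAB18 (-0.58), RAB14 (-0.59), RAB7B (-0.63), RAB1A (-0.66), RAB3A (-0.73), RAB6A (-0.75), RAB11B (-0.77), RAB21 (-0.80), RAB12 (-0.80), RAB27B (-0.83), RAB40C (-0.85), RAB10 (-0.92), RAB5A (-0.94), RAB8A (-0.97), RAB35 (-0.97), RAB29 (-1.02), RAB6B (-1.18) and RAB39A (-1.23). With library sizes alone RAB39A was at -0.15 and RAB6B at -0.089. Leaving out 1 library put the RAB11A log2 fold change at -0.0385 to 0.0199 and the RAB39A log2 fold change at -0.0469 to 0.12, neither called. The scarce copies and the genes under 1 CPM are limited by depth, and counts shared with overlapping genes could not be separated.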

Other observations

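RAB-like genes outside the symbol rule were taken by name, after their values were seen, and are given as values gene by gene. RASEF, a large RAB also known as RAB45, held 4, 8 and 14 counts in the KD libraries, against 1838, 1684 and 1901 counts in the NC libraries (log2 fold change -7.56, SE 0.14, edgeR adjusted p = 7.43e-24). The RAB-like subunits of intraflagellar transport were lower, with IFT22 at 4.15 ± 0.275 CPM in KD and 7.56 ± 0.462 CPM in NC and IFT27 at 5.29 ± 0.428 CPM in KD and 7.34 ± 0.381 CPM in NC (mean ± SD, n = 3 each). RABL6 (0.39 ± 0.046), RABL2B (0.38 ± 0.081) and RABL3 (0.25 ± 0.085) were higher, and RABL2A did not pass (0.14 ± 0.084, edgeR adjusted p = 0.142). Values in brackets are log2 fold changes ± SE. RAB17-DT held 27, 22 and 24 counts in KD, against 9, 8 and 4 counts in NC (log2 fold change 1.89, SE 0.43, edgeR adjusted p = 3.33e-04), and was not called on the leukocyte scale. RAB6C-AS1, in whose exons 26.1% of the RAB6C exon bases lie on the other strand, held no count in KD, against 21, 30 and 27 counts in NC, and reads of the pair cannot be told apart. CEP68, in whose exons 22.9% of the RAB1A exon bases lie on the other strand, held 403, 352 and 339 counts in KD, against 660, 660 and 700 counts in NC, while RAB1A was higher in KD on the TMM scale. On the leukocyte scale IFT22 was at -2.14, IFT27 at -1.75, and RABL6, RABL2B and RABL3 were called lower, at -0.88, -0.90 and -1.03.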
